A study of Mus musculus with 191 samples.

Results

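The 6 genes described here, Ly6g, Ly6c1, Ly6c2, Ly6a, Ly6e and Ly6d, encode small surface proteins of the mouse Ly6 family. They were chosen by name, with Ly6g included because its protein is the target of the depleting antibody used in the study, and were followed through 5 tissues by tissue and treatment. They are 6 of the 21204 genes found over the 5 tables. All 6 were present in bone marrow, gut and liver and 5 in lung and skin, where Ly6g was not analysed. Every member present passed the filter on low values (a mean of at least 1) except in liver, where 3 passed and Ly6g, Ly6c1 and Ly6d did not.

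Ly6 proteins are held on the outer face of the cell by a lipid anchor and share a compact, disulfide-bonded fold. In the mouse they serve mainly as markers of blood cell lineages: Ly6g marks neutrophils, Ly6c2 monocytes and maturing myeloid cells, Ly6c1 blood endothelium, Ly6a (Sca-1) stem and progenitor cells as well as endothelium, and Ly6d cells of the B lineage and stratified epithelium. Ly6a and Ly6e are also known as genes that interferon induces.

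RNA was sequenced to see what removing neutrophils, or a clock gene in them, does to tissues over the day. For each of 4 tissues (bone marrow, gut, liver, lung), 18 libraries came from C57BL/6 mice given an antibody against Ly6G (anti-Ly6G, clone 1A8) and 18 from C57BL/6 mice given control IgG. Both antibodies were given at 3 µg per g of body weight on 2 days in a row and tissue was taken on the next day, at 6 Zeitgeber times (ZT, hours after lights on; 3 mice per treatment and ZT). Some mice lived under light inverted by 12 h, and which ones is not said, so light schedule and ZT cannot be told apart. Ear skin, taken after perfusion at 16 ZT with 1 mouse per genotype and ZT, came from 16 Mrp8CRE; iDTR mice given diphtheria toxin (DT, 10 µg per kg), 15 Mrp8CRE; Bmal1-flox mice given no DT, and 16 control mice labelled as wild-type C57BL/6 given DT. Mrp8CRE is a Cre recombinase driven by the promoter of a myeloid calcium-binding protein gene, iDTR is a DT receptor that Cre switches on, and Bmal1-flox is a floxed allele of the clock gene Arntl. The skin cells that carried the receptor were not measured, and the Bmal1-flox mice differ from controls in DT as well as genotype. Ages are not given in the labels.

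Values are a normalized signal whose sum was about the same in every library, and a log2 difference is one of log2(value + 1), which understates changes of low genes. Depth was between 7680000 and 30900000 recovered reads per library. The tissues carried their own markers. The summed level of 5 hepatocyte genes in liver had a median of 84880 with anti-Ly6G and 87562 with IgG, and that of 15 mature neutrophil genes in bone marrow 29799 with anti-Ly6G and 27320 with IgG. Labels were in doubt in lung and skin. In gut, the titles of the IgG libraries at ZT 21 read bm where those of the other IgG libraries read co. They are used here as labelled. In bone marrow, gut and liver the number in a sample's title goes with 1 treatment and ZT throughout, while in lung 8 of 36 treatment labels and 0 of 36 ZT labels follow that numbering. Lung groups are therefore called by their labels, and the grouping by title number is given beside them. In skin, the long noncoding gene Gt(ROSA)26Sor, at the locus that holds the iDTR insertion, had a median of 0.604 in iDTR, 26.3 in Bmal1-flox and 0.798 in control libraries. The control libraries are thus as low as the iDTR ones, so "control" below means labelled as wild type. P-values measure the spread between mice, taken here as separate animals. In whole tissue, fewer cells of a type and less RNA per cell cannot be told apart.

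All 6 genes lie in 1 cluster on chromosome 15 (GRCm38, GENCODE M21). From the proximal side these are Ly6d (74762056 to 74763620, minus strand), Ly6e (74955051 to 74959905, plus), Ly6a (74994877 to 74998031, minus), Ly6c1 (75044018 to 75048830, minus), Ly6c2 (75108158 to 75111970, minus) and Ly6g (75155240 to 75159126, plus). The coding sequences of Ly6c1 and Ly6c2 were identical at 384 of 393 bases (97.7%). Ly6g matched Ly6a at 83.1%, Ly6c1 at 81.4% and Ly6c2 at 79.9% of aligned coding bases, whereas Ly6e matched the others at 59.6 to 64.6% and Ly6d at 64.4 to 68.5%. Reads were 50 bases long. The share of 50-base stretches that occur unchanged in another gene's transcript limits how far 2 members can be told apart. Near matches were not counted. That share was 36.7% for Ly6c1 (292 of 795 stretches, 252 of them in Ly6c2), 33% for Ly6c2, 10.0% for Ly6a, 0.448% for Ly6g (4 of 892), and 0% for Ly6e and Ly6d. Values of Ly6c1 and Ly6c2 therefore rest in part on how the authors' tool shared reads between the pair, and each is uncertain where the other is far more abundant. The 60 coding bases below, bases 6 to 65 of each coding sequence in exon 2, are the gap-free stretch in which Ly6c1 and Ly6c2 differ most, and are shown because the pair is told apart only by such bases. Capitals mark bases that differ from Ly6c2. The stretch held 6 differences in Ly6c1, 11 in Ly6g and 4 in Ly6a.
Ly6c2 (chr15:75111603-75111662, minus): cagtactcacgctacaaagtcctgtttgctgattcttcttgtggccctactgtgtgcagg
Ly6c1 (chr15:75048447-75048506, minus): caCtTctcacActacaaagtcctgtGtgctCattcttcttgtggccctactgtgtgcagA
Ly6g (chr15:75155650-75155709, plus): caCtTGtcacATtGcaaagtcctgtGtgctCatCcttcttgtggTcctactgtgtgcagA
Ly6a (chr15:74997540-74997599, minus): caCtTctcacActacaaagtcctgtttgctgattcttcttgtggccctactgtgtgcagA

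The 250 bases before a RefSeq transcript start (GRCm38.p6) were found for 3 of the 6 members, Ly6g, Ly6c1 and Ly6c2, with 2 starts each. One window each of Ly6g and Ly6c2 is shown because both genes were higher in bone marrow after anti-Ly6G and varied together across its libraries. Motifs were searched on both strands. The letters AGAGGAAGT, a PU.1-type motif (PU.1 is a myeloid transcription factor), were in 2 of the 6 windows, 1 of Ly6c1 and 1 of Ly6c2. They were in 0.798% of 32851 mouse promoters. Both matches lie after the gene's other start, inside the gene as GENCODE draws it, and the window before that other start held none. The 2 windows of a gene overlap and Ly6c1 and Ly6c2 are near-identical, so the 6 windows are not separate promoters. A C/EBP-type motif, TTGCNNAA (C/EBP factors act in granulocyte development), was in 1 window of Ly6g, on the opposite strand 232 bases before the start, and in 9.56% of all promoters. The interferon-response element, GAAA then any 2 bases then GAAA (2.98% of promoters), the STAT-type letters TTCNNNGAA (7.02%) and the clock E-box CACGTG (6.02%) were in 0 of the 6 windows. Capitals below mark the match, and a match is a run of letters, not a measured binding site.
Ly6g (chr15:75155011-75155260, plus): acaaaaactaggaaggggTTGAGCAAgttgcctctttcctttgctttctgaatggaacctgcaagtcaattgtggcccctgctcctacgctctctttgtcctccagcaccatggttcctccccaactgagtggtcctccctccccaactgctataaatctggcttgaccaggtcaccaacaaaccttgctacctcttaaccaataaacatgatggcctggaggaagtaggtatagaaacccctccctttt
Ly6c2 (chr15:75111938-75112187, minus): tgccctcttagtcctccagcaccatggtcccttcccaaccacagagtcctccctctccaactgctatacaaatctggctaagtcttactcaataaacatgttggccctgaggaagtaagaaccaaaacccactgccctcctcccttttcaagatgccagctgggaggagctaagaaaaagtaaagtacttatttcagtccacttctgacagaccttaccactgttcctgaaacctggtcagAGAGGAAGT

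Per kilobase of transcript, the leading member was Ly6c2 in bone marrow, Ly6a in gut and lung, Ly6e in liver and Ly6d in skin. The order rests in part on length, since Ly6e was divided by 2281 bases and the other members by 744 to 955. Before that division, means of Ly6e and Ly6c2 were close in bone marrow (528 and 535 after anti-Ly6G, 488 and 454 after IgG). Ly6e was above Ly6a in gut (229 and 203 after anti-Ly6G, 246 and 210 after IgG). It was so in lung as well (776 and 368 labelled anti-Ly6G, 759 and 378 labelled IgG). In bone marrow Ly6c2 led, with a median of 638 per kb after anti-Ly6G and 548 per kb after IgG, followed by Ly6e (234 and 212), Ly6g (123 and 111), Ly6d (76.2 and 93.7), Ly6a (33.6 and 33.6) and Ly6c1 (10.9 and 11.3), anti-Ly6G before IgG. In gut, Ly6a (196 per kb after anti-Ly6G, 211 after IgG) and Ly6g (164 and 186) lay close together with overlapping libraries, above Ly6e (98.5 and 106), Ly6c1 (28.9 and 25.9), Ly6c2 (9.05 and 9.97) and Ly6d (4.08 and 4.38). In liver, Ly6e stood alone at 103 per kb after anti-Ly6G and 99.6 after IgG, with Ly6a at 7.52 and 7.99. In lung, Ly6a (380 per kb in libraries labelled anti-Ly6G, 395 in those labelled IgG), Ly6e (339 and 328) and Ly6c1 (273 and 300) overlapped, far above Ly6c2 (16.0 and 18.5) and Ly6d (7.30 and 7.32). In skin, Ly6d led with 1031 per kb in iDTR, 1124 in Bmal1-flox and 1050 in control libraries, followed by Ly6a (232, 147 and 142 in the same genotypes), Ly6c1 (112, 85.9 and 81), Ly6e (96.8, 77.4 and 74.3) and Ly6c2 (7.42, 4.78 and 4.37). The near-identical pair thus took opposite places. Ly6c2 over Ly6c1 per kb had a median of 58.6 in bone marrow after anti-Ly6G (range 47.3 to 80.0) and 47.9 after IgG (34.3 to 70.7). In lung it was Ly6c1 that led, by 18.3 times in libraries labelled anti-Ly6G (11.5 to 32.5) and 16.2 times in those labelled IgG (8.98 to 25.7), and in control skin by 19.4 times. In liver Ly6c1 had a median of 3.90 reads per library after anti-Ly6G and 4.27 after IgG, so no ratio is drawn there. The tables were normalized separately, so levels set side by side across tissues carry no test.

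**Figure D1:**
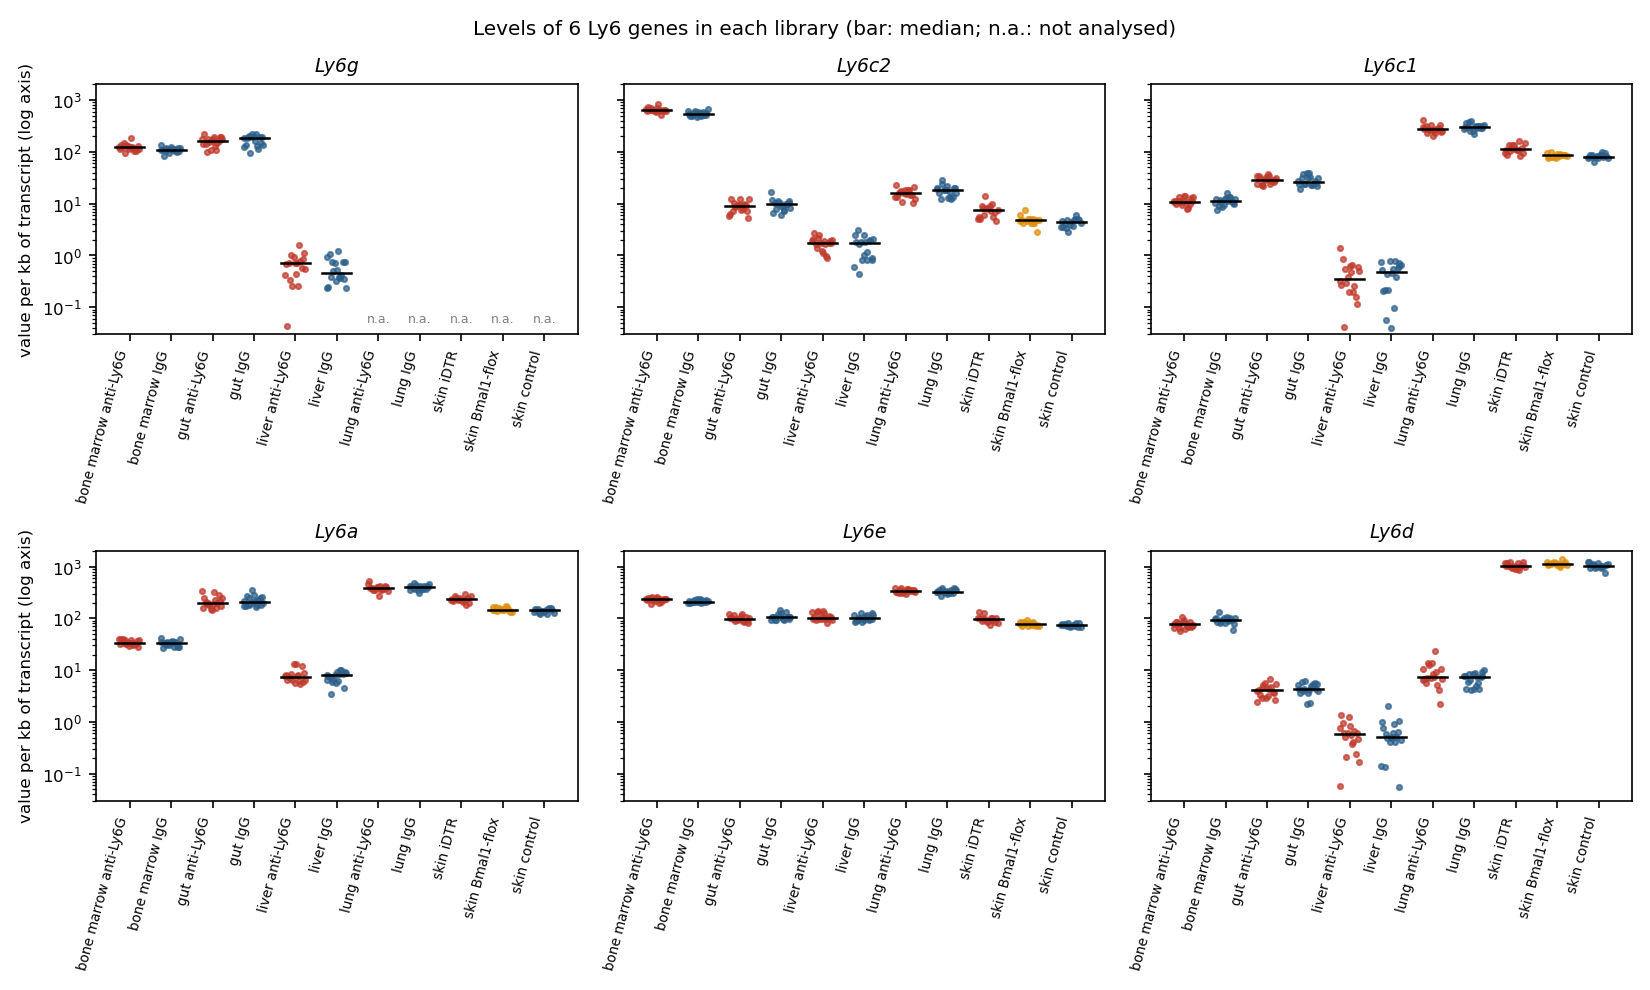
Normalized value per kilobase of transcript (log axis) of each Ly6 gene in every library, by tissue and group (points, libraries; bars, medians; lung groups as labelled; n.a., not analysed). Ly6c2 leads in bone marrow with medians of 638 and 548, Ly6e in liver with 103 and 99.6, and Ly6d in skin with 1031, 1124 and 1050.

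**Figure D2:**
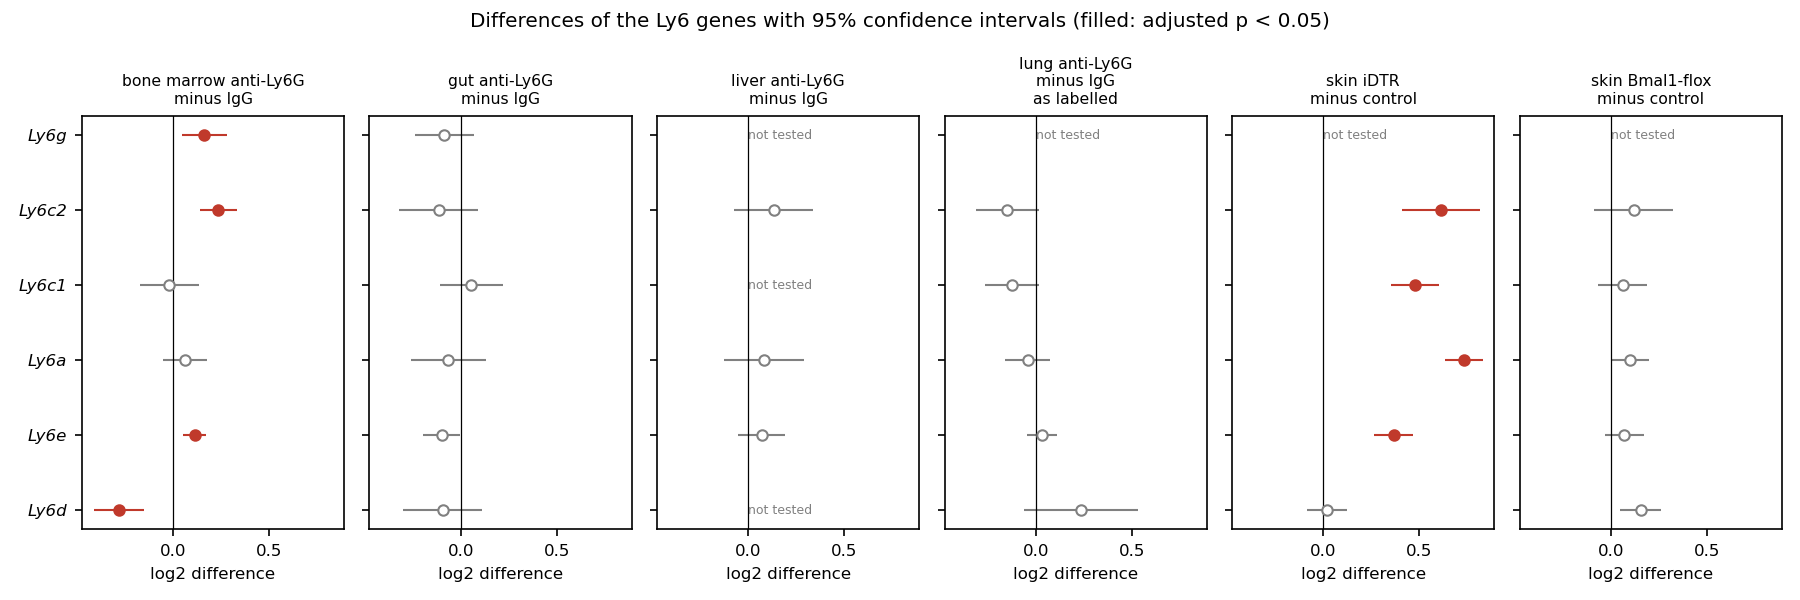
Log2 differences of the Ly6 genes (horizontal axis, log2(value + 1) scale) with 95% confidence intervals in the 6 comparisons, filled where the adjusted p was under 0.05. In bone marrow 3 genes were higher and Ly6d lower, in iDTR skin 4 genes were higher, and in the other 4 comparisons none passed.

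Bone marrow, where neutrophils are made, was compared to ask what the antibody did to transcripts of its own target. Ly6g was not lower. It lay between 91.4 and 175 with a median of 115 after anti-Ly6G, and between 79.7 and 129 with a median of 104 after IgG. The groups overlapped, with 3 of 18 anti-Ly6G libraries above every IgG library and 15 of 18 above the IgG median. The means were 118 ± 18.6 with anti-Ly6G and 104 ± 10.6 with IgG (SD, n = 18 per treatment), a log2 difference of 0.16 (SE 0.0578; limma adjusted p = 0.0498), higher at 6 of 6 ZT with 0.42 at ZT 13 and 0.031 at ZT 21. The call stood at the threshold and was lost when any 1 of 24 of the 36 libraries was left out. Without the highest library, anti-Ly6G replicate 10 at ZT 13, the difference was 0.12 (adjusted p = 0.0702). Across the tissue, 4 of the 6 members passed the test, against 17.1% of the 14289 genes tested, 3 higher (9.95% of all genes) and 1 lower (7.16%). In 0 of the 6 did the groups separate without overlap, as they did for 0.0420% of genes.

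Ly6c2, the monocyte and myeloid member, rose more firmly. It lay between 419 and 706 with a median of 525 after anti-Ly6G, and between 385 and 558 with a median of 450 after IgG. Of 18 anti-Ly6G libraries, 17 lay above the IgG median and 4 above every IgG library. The means were 535 ± 59.2 with anti-Ly6G and 454 ± 43.6 with IgG (SD, n = 18 each). The log2 difference was 0.23 (SE 0.0477; adjusted p = 0.00068), or 1.18-fold, and it was higher at 5 of 6 ZT. Its near-identical partner Ly6c1 was at 9.40 ± 1.52 with anti-Ly6G and 9.58 ± 1.76 with IgG (SD, n = 18 each), a log2 difference of -0.021 (SE 0.0755; adjusted p = 0.888), with a sign that changed when 1 library was left out. Markers of myeloid cells moved in the same tissue. All 7 neutrophil progenitor genes rose, among them Prtn3 and Ctsg, proteases of the first granules (log2 0.67 and 0.56), and Mpo, myeloperoxidase (0.51). Their summed level lay between 3511 and 5243 after anti-Ly6G and between 2462 and 3621 after IgG. Of 15 mature neutrophil genes, 5 rose and 1 fell, with Stfa3 at 0.38, the surface protein gene Cd177 at 0.36 and Stfa2l1 at 0.34, and the gene that fell was Csf3r, the G-CSF receptor (-0.23). Their summed level had a median of 29799 after anti-Ly6G (24866 to 45521) and 27320 after IgG (22772 to 33506). Of 9 classical monocyte genes 6 rose, with F13a1 at 0.27, and their summed level had a median of 1042 after anti-Ly6G (907 to 1537) and 950.2 after IgG (805 to 1082). The upper ends of these 3 anti-Ly6G ranges are 1 library, replicate 10 at ZT 13, which also was highest for Ly6g and Ly6c2. Without it, the highest anti-Ly6G sums were 5014 for progenitor, 36643 for mature neutrophil and 1206 for monocyte genes. The tests without it, added after seeing the data, called 7 progenitor genes higher, 6 mature neutrophil genes higher and 1 lower, and 4 monocyte genes higher. The part of these cells in the values of Ly6g and Ly6c2 was not tested.

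Ly6d fell. It lay between 42.9 and 79.4 with a median of 56.7 after anti-Ly6G, and between 45.1 and 98.3 with a median of 69.7 after IgG. The ranges overlapped, but 17 of 18 anti-Ly6G libraries lay below the IgG median. The means were 57.1 ± 8.79 with anti-Ly6G and 69.7 ± 11.1 with IgG (SD, n = 18 each), a log2 difference of -0.28 (SE 0.0649; adjusted p = 0.0024), lower at 5 of 6 ZT, with -0.55 at ZT 9 and 0.08 at ZT 5. Of 11 B cell precursor genes, 9 fell in the same libraries, among them Igll1 and Vpreb1, parts of the pre-B cell receptor (log2 -0.50 and -0.42), and Dntt, which adds bases at antigen receptor joints (-0.37). Their summed level lay between 451 and 787 after anti-Ly6G and between 627 and 979 after IgG. The lowest sum was again that of replicate 10 at ZT 13, without which the lowest was 506 and 8 of the 11 genes were called lower. The part of these cells in the value of Ly6d was not tested.

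Ly6e, a widely expressed gene that interferon induces, rose slightly. It lay between 441 and 597 with a median of 533 after anti-Ly6G, and between 451 and 541 with a median of 483 after IgG. The groups overlapped, with 7 of 18 anti-Ly6G libraries above every IgG library and 1 below every one. The log2 difference was 0.11 (SE 0.0295; adjusted p = 0.0068), higher at 6 of 6 ZT, and without the ZT 21 libraries it was 0.093 (adjusted p = 0.0545). Ly6a, the stem cell antigen, had the same median of 32.1 after anti-Ly6G and after IgG, with a log2 difference of 0.063 (95% interval -0.051 to 0.18; adjusted p = 0.485). Of 19 interferon-stimulated genes 0 rose and 2 fell, Ifit3 at -0.34 and Rsad2 at -0.22. That is 10.5% against 17.1% of all genes, and without anti-Ly6G replicate 10 only Ifit3 was called. By the likeness described below for Ly6g, Ly6e varied most like Psmb9 (r = 0.72), Parp10 (0.70) and Ifi211 (0.69). The part of interferon in the value of Ly6e was not tested. Of 18 Ly6 family genes tested in bone marrow, members included, 5 were higher and 2 lower, which is 38.9% against 17.1% of all genes. Among the 12 that are not members, 3 were called (25%). These were Ly6g5b (3.60 with anti-Ly6G, 2.83 with IgG, log2 0.27; adjusted p = 0.0174), Plaur, the urokinase receptor gene (log2 0.17; adjusted p = 0.0139), and Lynx1, a modulator of nicotinic receptors (log2 -0.20; adjusted p = 0.0200). The median log2 difference was 0.088 over the 6 members and -0.0045 over all genes tested.

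In gut, the transcript of the antibody target was abundant, while most neutrophil genes were near 0. Ly6g lay between 92.3 and 205 with a median of 154 after anti-Ly6G, and between 90.9 and 212 with a median of 175 after IgG. No anti-Ly6G library lay outside the IgG range, and 4 of 18 lay above the IgG median. The means were 150 ± 31.4 with anti-Ly6G and 160 ± 36.8 with IgG (SD, n = 18 each), a log2 difference of -0.085 (95% interval -0.24 to 0.069; adjusted p = 0.655). Only 5 of the 15 mature neutrophil genes were in the gut table, and 3 of these had a median under 1 in both groups. Ltf, lactoferrin, had a median of 0.360 after anti-Ly6G and 0.325 after IgG in gut, against 4412 and 3736 in bone marrow, and Mmp9 one of 0.751 and 0.772 in gut, against 824 and 808 in bone marrow. Csf3r was at 0.558 and 0.685 in gut, and the chemokine receptor Cxcr2 at 2.28 and 2.17. Cd177 was the exception, at a median of 68.8 after anti-Ly6G and 92.5 after IgG. The summed level of the list lay between 51.0 and 169 after anti-Ly6G and between 53.4 and 192 after IgG in gut. Exact 50-base matches in another transcript cover 0.448% of Ly6g stretches, but near matches were not counted. In liver, recovered Ly6g reads were mostly not whole (2.64, 3.53 and 3.29 in IgG replicates 1 to 3 at ZT 1). Those of Ly6d, which shares 0% of stretches, were whole there (1, 7 and 4), so the exact share may understate read sharing for Ly6g. How gut reads were assigned was not tested, and the cells that carried Ly6g were not measured.

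**Figure D3:**
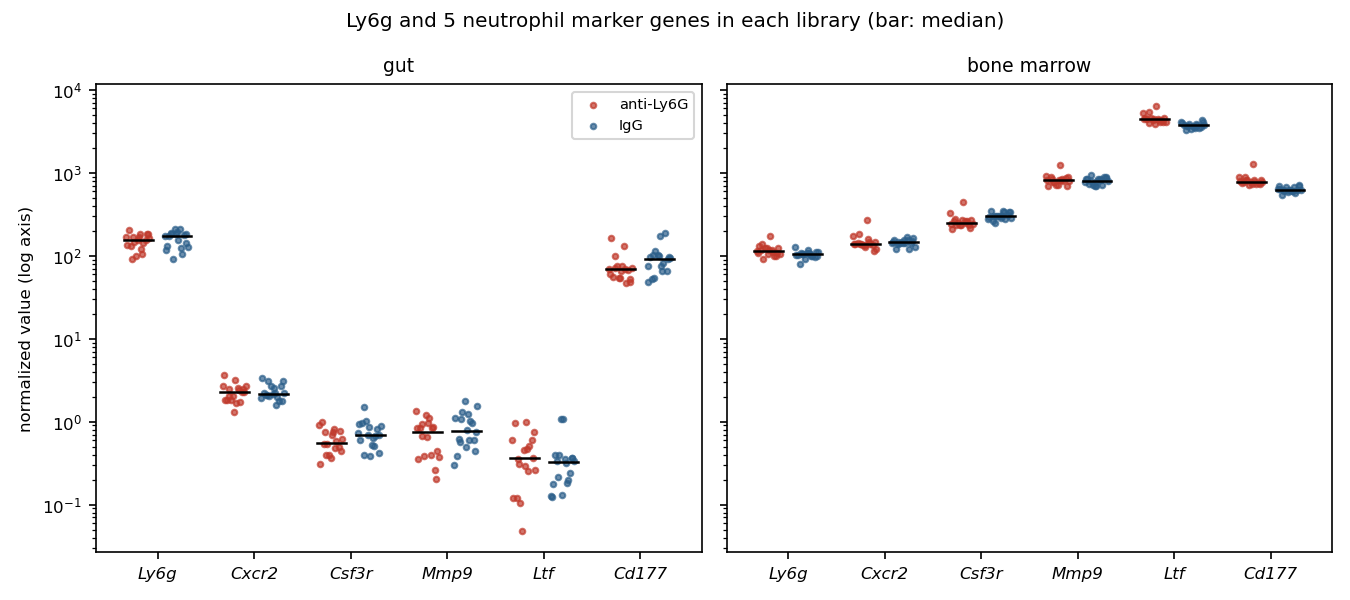
Normalized value (log axis) of Ly6g and 5 mature neutrophil genes in every gut (left) and bone marrow (right) library, anti-Ly6G in red left of IgG in blue (points, libraries; bars, medians). Ly6g has medians of 154 and 175 in gut and 115 and 104 in bone marrow, while Ltf is at 0.360 and 0.325 in gut and 4412 and 3736 in bone marrow.

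The genes whose libraries varied most like Ly6g also differed between the tissues. Likeness was Pearson's r of log2(value + 1) over 36 libraries after the mean of each treatment and ZT was removed. It is a description with no test, since the genes were picked for it and the points share library depth. In bone marrow these were Prdx5 (r = 0.89), the myeloid surface gene Mcemp1 (0.89) and Cd52 (0.88), and r with Ly6c2 was 0.82. The libraries include anti-Ly6G replicate 10 at ZT 13, the highest for Ly6g and Ly6c2, and r without it was not computed. In gut the genes most like Ly6g were Plac8 (0.89), Lypd8, a Ly6 family gene of the colon epithelium whose protein keeps bacteria off it (0.82), and Rac1 (0.81). With other members, r of gut Ly6g was 0.75 for Ly6a, 0.56 for Ly6c1, 0.41 for Ly6e, -0.32 for Ly6c2 and -0.37 for Ly6d. Gut Plac8 had a median of 772 after anti-Ly6G and 832 after IgG, and gut Lypd8 one of 8006 and 8302. The summed level of 9 gut epithelium genes had a median of 9095 after anti-Ly6G and 9296 after IgG.

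Gut Ly6g also followed the time of day in both treatments. Its mean at ZT 1, 5, 9, 13, 17 and 21 was 128, 113, 172, 180, 152 and 157 after anti-Ly6G, and 108, 152, 187, 192, 152 and 170 after IgG (3 mice each). The 24 h wave peaked at 14.1 h after anti-Ly6G with a peak-to-trough fold of 1.48 (limma F test, adjusted p = 0.0418), and at 12.6 h after IgG with a fold of 1.54 (adjusted p = 0.0175). Rhythms were called for 24.6% of gut genes after anti-Ly6G and 33.6% after IgG. The difference in rhythm between treatments did not pass (adjusted p = 0.950). Both calls rest on few ZT: the anti-Ly6G call was lost without ZT 1, 5, 9 or 13 and the IgG call without ZT 1, 9 or 13.

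**Figure D4:**
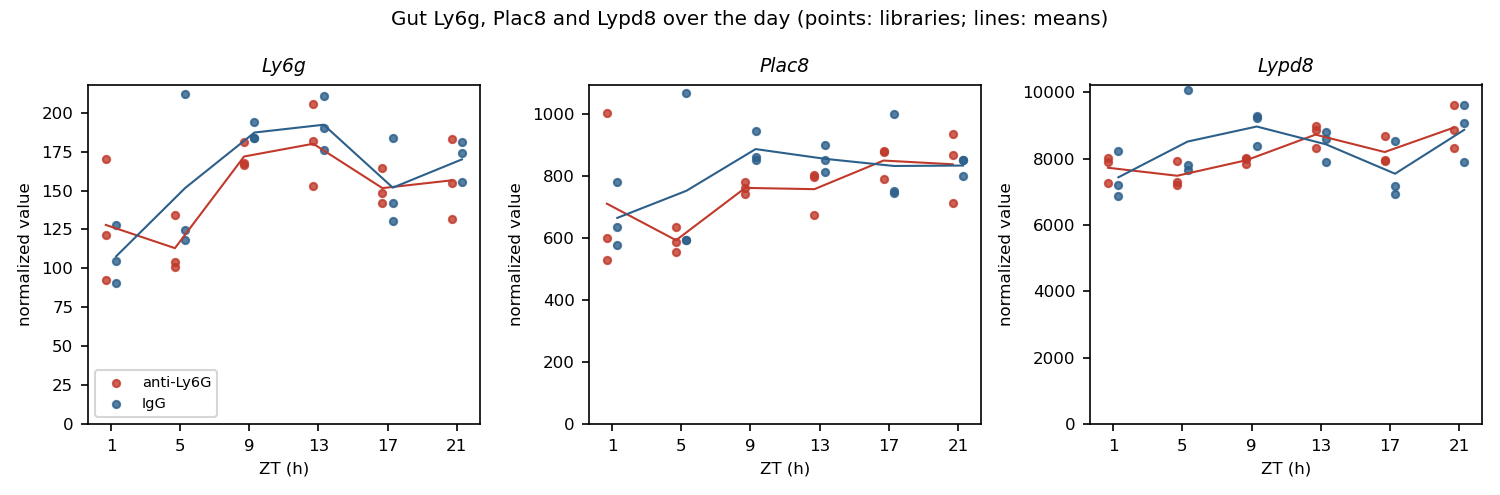
Normalized value of Ly6g, Plac8 and Lypd8 in gut against ZT (points, libraries; lines, means of 3 mice; anti-Ly6G red, IgG blue). Ly6g means lie at 128 and 113 at ZT 1 and 5 and at 180 at ZT 13 after anti-Ly6G, and at 108 at ZT 1 and 192 at ZT 13 after IgG.

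None of the 6 members passed the test between treatments in gut, where 0.0132% of 15158 genes did (limma), and Ly6e alone had an unadjusted p under 0.05. Ly6e lay between 183 and 282 with a median of 225 after anti-Ly6G, and between 211 and 331 with a median of 241 after IgG, a log2 difference of -0.099 (unadjusted p = 0.0434; adjusted p = 0.375). Of 18 anti-Ly6G libraries, 5 lay below every IgG library. Ly6a lay between 139 and 323 after anti-Ly6G and between 161 and 335 after IgG (log2 -0.065, 95% interval -0.26 to 0.13). The myeloid Ly6c2, at medians of 7.44 and 8.20, had a log2 difference of -0.12, and Ly6d, at 3.04 and 3.26, one of -0.094. Ly6c1 had a median of 24.4 after anti-Ly6G and 21.9 after IgG, a log2 difference of 0.056 (95% interval -0.11 to 0.22). Gut Ly6a, Ly6e and Ly6c1 varied together. Their r was 0.61 between Ly6a and Ly6e, 0.60 between Ly6a and Ly6c1 and 0.51 between Ly6c1 and Ly6e. Between Ly6g and Ly6a it was 0.75. Ly6a varied with Psme2 and Psmb10, parts of the immunoproteasome system (r = 0.88 and 0.87), and Ly6e with Psme1 and H2-D1 (0.84 and 0.84). Ly6c1 varied with H2-Aa (0.77). Ly6c2 varied with the plasma cell genes Igha, Igkc and Jchain (0.78, 0.77 and 0.75), and at 0.11 with Ly6a. Of 20 Ly6 family genes tested in gut, 0 were called.

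Liver held mainly Ly6e. It lay between 190 and 314 with a median of 234 after anti-Ly6G, and between 193 and 290 with a median of 227 after IgG, a log2 difference of 0.071 (95% interval -0.051 to 0.19; adjusted p = 0.668). Ly6a lay between 5.16 and 12.8 after anti-Ly6G and between 3.29 and 9.48 after IgG (log2 0.082; adjusted p = 0.793), and Ly6c2 between 0.736 and 2.21 after anti-Ly6G and between 0.363 and 2.56 after IgG (log2 0.13; adjusted p = 0.622). All groups overlapped. None of the 3 members tested passed by limma, or had an unadjusted p under 0.05, while 1.40% of 12504 genes passed (0.776% higher, 0.624% lower). Ly6g was at a median of 0.660 after anti-Ly6G and 0.434 after IgG, a median of 7.14 and 4.80 reads per library, and was not tested. Over the day, liver Ly6e after anti-Ly6G peaked at 21.9 h (1.29-fold, adjusted p = 0.0361) and Ly6a after anti-Ly6G at 18.6 h (1.56-fold, adjusted p = 0.0351), where 34.7% of genes were called. Ly6c2 after IgG peaked at 12.9 h (1.64-fold, adjusted p = 0.0104), where 42.9% were. No liver member passed the test of the difference in rhythm (adjusted p between 0.491 and 0.699), and each of these 3 calls was lost without single ZT.

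In lung, treatment labels set the result. Among libraries as labelled, none of the 5 members passed and neither did any of 15641 genes (0%; limma), and no member had an unadjusted p under 0.05. Ly6c1, the endothelial member, lay between 168 and 352 with a median of 230 in libraries labelled anti-Ly6G, and between 187 and 336 with a median of 253 in those labelled IgG (log2 -0.12; adjusted p = 0.596). Ly6c2 lay between 8.49 and 19.0 with a median of 13.1 in libraries labelled anti-Ly6G, and between 9.98 and 23.5 with a median of 15.2 in those labelled IgG (log2 -0.15; adjusted p = 0.584). Grouped by title number, both were higher with anti-Ly6G. Ly6c1 then lay between 187 and 352 with a median of 262 with anti-Ly6G, and between 168 and 284 with a median of 228 with IgG (log2 0.21, SE 0.0602; adjusted p = 0.0309). Ly6c2 lay between 9.98 and 23.5 with a median of 14.6 with anti-Ly6G, and between 8.49 and 17.4 with a median of 13.3 with IgG (log2 0.21, SE 0.0664; adjusted p = 0.0448). The 2 calls stand against 6.88% of genes under that grouping. Ly6a (log2 0.071), Ly6e (-0.039) and Ly6d (-0.25) did not pass by title number. The clock gene Arntl peaked at 13.5 h in libraries labelled anti-Ly6G and 16.7 h in those labelled IgG, and at 20.3 h and 21.7 h by title number, against 20.2 h and 21.0 h in liver, anti-Ly6G before IgG. Which grouping is right was not tested, so no direction is drawn for lung Ly6c1 or Ly6c2.

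Lung Ly6a and Ly6e were abundant under both labels. Ly6a had a median of 363 in libraries labelled anti-Ly6G and 378 in those labelled IgG (log2 -0.043, 95% interval -0.16 to 0.076), and Ly6e one of 773 and 747 (log2 0.032, 95% interval -0.048 to 0.11). Ly6d spread most. It lay between 1.66 and 17.8 in libraries labelled anti-Ly6G, and between 3.13 and 7.46 in those labelled IgG, with medians of 5.43 and 5.44. It varied with the B cell receptor genes Cd79a and Cd79b (r = 0.93 and 0.92) and with Bank1 (0.91), and without its highest library, replicate 3 labelled anti-Ly6G, r was 0.92 with Cd79a and 0.90 with Cd79b over 35 libraries. In bone marrow as well, Ly6d varied most like Cd79b (0.88) and Ms4a1, which encodes CD20 (0.86). Lung Ly6c1 varied with Ly6a (r = 0.83) and hardly with Ly6c2 (-0.02). Ly6c2 was rhythmic in both lung groups as labelled. It peaked at 19.2 h in libraries labelled anti-Ly6G (1.43-fold, adjusted p = 0.0351; 12.7% of genes called) and at 23.4 h in those labelled IgG (1.60-fold, adjusted p = 0.00568; 11.2%). By title number it was called in both as well, at 3.50 h with anti-Ly6G (1.48-fold, adjusted p = 0.0133; 13.2%) and 2.59 h with IgG (1.53-fold, adjusted p = 0.00385; 23.6%). Ly6d passed by title number with IgG alone (1.89-fold, adjusted p = 0.0499), and its difference in rhythm did not (adjusted p = 0.924).

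In iDTR ear skin, 4 of the 5 members rose against control skin, where 63.0% of the 15946 genes tested changed, 30.6% higher and 32.4% lower. With so many genes called, the sizes say more than the count. On the log2(value + 1) scale Ly6a had the largest difference. That scale understates the change of the low Ly6c2, whose mean was 6.14 in iDTR and 3.57 in control libraries. Ly6a lay between 177 and 289 with a median of 221 in iDTR libraries, and between 114 and 153 with a median of 136 in control libraries. All 16 iDTR libraries lay above every control library, a separation that 8.24% of genes showed in either direction. The Bmal1-flox libraries, between 124 and 165, lay below every iDTR library as well. The means were 225 ± 28.1 in iDTR and 135 ± 12.3 in control skin (SD, n = 16 each). The log2 difference was 0.73 (SE 0.0485; adjusted p = 4.2e-18), or 1.66-fold, and it was higher at 16 of 16 ZT. Ly6c1 lay between 69.5 and 137 with a median of 94.4 in iDTR libraries, and between 54.5 and 84.5 with a median of 68.4 in control libraries. It was higher at 16 of 16 ZT, with 12 of 16 iDTR libraries above every control library (log2 0.48, SE 0.0622; adjusted p = 5.0e-09).

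Ly6c2 was low in skin but its value rose as well. Per kb, Ly6c1 was at a median of 16.3 times Ly6c2 in iDTR and 19.4 times in control libraries, and 33% of Ly6c2 stretches occur in another transcript. How skin reads were shared between the pair was not tested. Ly6c2 lay between 3.75 and 11.6 with a median of 6.10 in iDTR libraries, and between 2.30 and 4.99 with a median of 3.59 in control libraries. It was higher at 14 of 16 ZT, with the highest value at ZT 4 (log2 0.61, SE 0.0998; adjusted p = 7.0e-07). Ly6e lay between 168 and 305 with a median of 221 in iDTR libraries, and between 153 and 189 with a median of 170 in control libraries. It was higher at 15 of 16 ZT, with 14 of 16 iDTR libraries above every control library (log2 0.37, SE 0.0503; adjusted p = 1.8e-08). Ly6d, the most abundant member in skin and known from stratified epithelium, was the exception at 778 ± 88.0 in iDTR and 769 ± 86.7 in control libraries (SD, n = 16 each), a log2 difference of 0.017 (95% interval -0.087 to 0.12; adjusted p = 0.787). The median log2 difference was 0.48 over the 5 members and -0.017 over all genes tested.

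**Figure D5:**
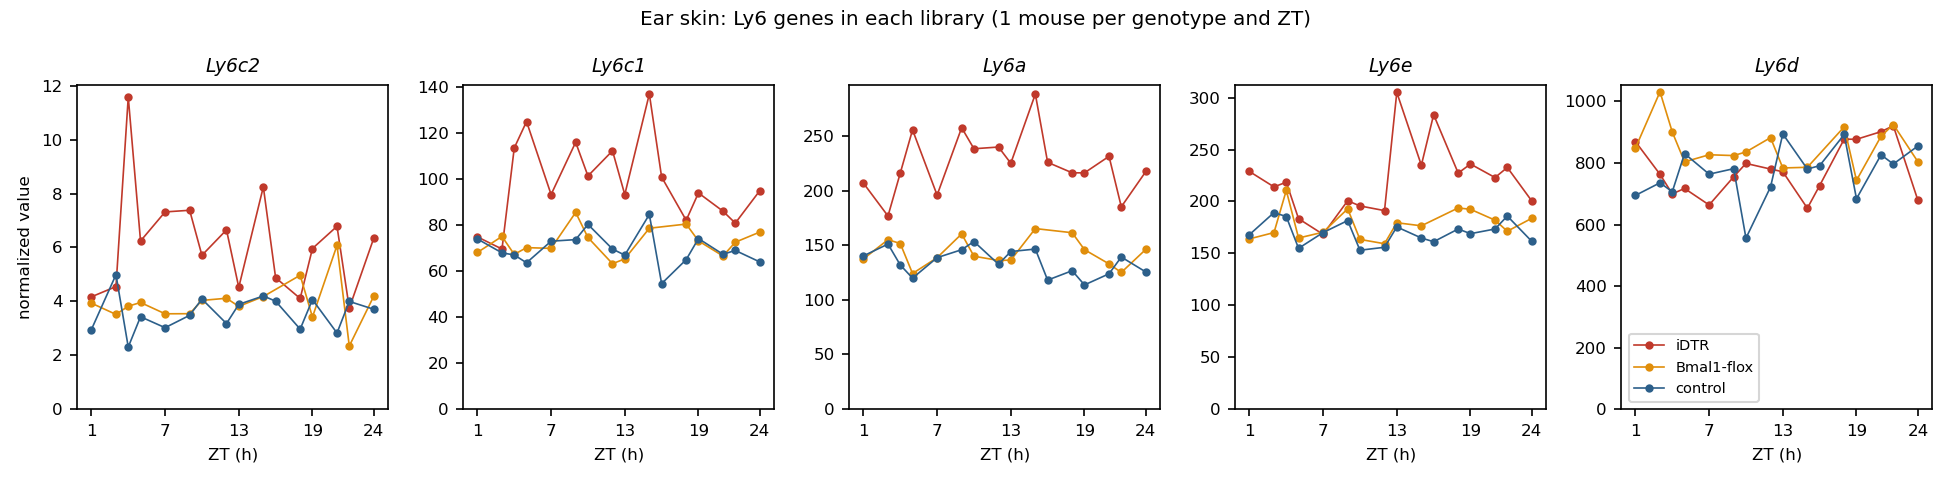
Normalized value of 5 Ly6 genes in ear skin against ZT, 1 library per genotype and ZT (iDTR red, Bmal1-flox orange, control blue). Ly6a lies between 177 and 289 in iDTR and between 114 and 153 in control libraries with no overlap, whereas Ly6d overlaps throughout.

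Lists of other cells and responses are set beside these genes, against the 63.0% of all genes that were called. Of 18 interferon-stimulated genes 14 rose and 1 fell (83.3% called), among them Isg15 (7.33 in iDTR, 1.57 in control, log2 1.59) and Oasl2 (log2 0.99). The chemokine gene Cxcl10 averaged 5.95 in iDTR and 0.868 in control libraries. Its median was under 1 in control and Bmal1-flox libraries, so it passed the filter on low values through the iDTR libraries. The list's summed level had a median of 149.9 in iDTR (114 to 362) and 120.2 in control libraries (98.1 to 175). Of 12 blood endothelium genes 1 rose, Plvap (log2 0.45), and 7 fell (66.7% called, near that background), with Kdr at -0.41 and Ramp2 at -0.38, and their summed level lay between 267 and 458 in iDTR and between 293 and 418 in control libraries. Of 8 keratinocyte genes 6 rose and 1 fell, with Krt15 at -1.56, Dsg3 at 1.29 and Krt1 at 1.04. Of 7 mature neutrophil genes 6 rose and 1 fell, with Stfa3 at 2.02, S100a9 at 1.34 and S100a8 at 1.32. The summed level of the neutrophil list overlapped, between 107 and 213 in iDTR and between 91.9 and 151 in control libraries. Of its 12 genes found in skin, 5 had a median under 1 in both, and the skin cells that carried the list's genes were not measured. The wound-response keratin gene Krt6a had a median of 1631 in iDTR, 129 in Bmal1-flox and 103 in control libraries. The part of these genes' cells in the rises of Ly6a, Ly6c1, Ly6c2 and Ly6e was not tested. Of 24 Ly6 family genes tested, members included, 9 rose and 7 fell in iDTR skin, a share of 66.7% that is near the 63.0% of all genes. The largest changes outside the members were in Plaur (15.2 in iDTR, 4.79 in control, log2 1.46), Pinlyp (log2 0.65) and Lypd6 (log2 -0.62). Across all 47 skin libraries, with genotype means and a 24 h wave removed, Ly6c1 varied most like Col4a1 (r = 0.73), Ly6a like Prss23 (0.64), Ly6e like the lysosomal protease gene Ctsb (0.84) and Ly6d like Rplp0 (0.88), while Ly6c1 and Ly6a varied together at 0.70.

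Bmal1-flox skin was compared to ask what loss of the clock activator in neutrophils does. None of the 5 members passed by limma, against 5.63% of genes (2.41% higher, 3.21% lower), and Ly6d alone had an unadjusted p under 0.05. Ly6d lay between 744 and 1031 with a median of 836 in Bmal1-flox libraries, and between 556 and 895 with a median of 781 in control libraries. The groups overlapped, with 14 of 15 Bmal1-flox libraries above the control median (log2 0.15, SE 0.0527; unadjusted p = 0.00505; adjusted p = 0.0722), higher at 12 of 15 ZT. Leaving out Bmal1-flox replicate 3 or control replicate 14 took it past the threshold (adjusted p = 0.0365 and 0.0322). Ly6a lay between 124 and 165 in Bmal1-flox libraries, and between 114 and 153 in control libraries (log2 0.098, 95% interval -0.0011 to 0.20). Ly6c1 (log2 0.060), Ly6e (0.070) and Ly6c2 (0.12) did not pass. Both skin comparisons share the control libraries. Of 24 Ly6 family genes tested 3 rose, Pinlyp (log2 0.45), Lypd3 (0.32) and 2010109I03Rik (0.27), and 0 fell, which is 12.5% against 5.63% of all genes.

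Over the day, 9 rhythms were called among the members in the 11 groups, 2 of them in gut, 3 in liver, 2 in lung as labelled and 2 in iDTR skin. In iDTR skin, Ly6e peaked at 17.6 h (1.31-fold, adjusted p = 0.0146) and Ly6c1 at 10.9 h (1.34-fold, adjusted p = 0.0454), where 10.9% of genes were called. No member was called in Bmal1-flox skin (0.326% of genes), control skin (0.383%), or bone marrow after anti-Ly6G (0.406%) or IgG (1.62%). The smallest bone marrow value was that of Ly6d after IgG, with an unadjusted p of 0.00818 and an adjusted p of 0.145. A call in 1 group and not in another is no difference between them, and 0 members passed the test of differential rhythm in any comparison. The shares of genes called by that test were 0.00700% for bone marrow, 0% for gut, 0.00800% for liver, 0.0511% for lung as labelled, 0.144% in iDTR skin and 0% in Bmal1-flox skin. Unadjusted p under 0.05 were those of liver Ly6e (0.0197) and Ly6c2 (0.0424), lung Ly6c2 (0.0118) and iDTR skin Ly6e (0.0104). Whether the antibody difference itself changed with ZT was asked by an interaction test, which 0 members passed. It called 0.0210% of bone marrow genes, 0% of gut, 0.0240% of liver and 1.11% of lung genes as labelled. Bone marrow Ly6d (unadjusted p = 0.0247, adjusted p = 0.382) and Ly6c2 (unadjusted p = 0.0383, adjusted p = 0.402) alone had an unadjusted p under 0.05, and lung Ly6c2 as labelled had an adjusted p of 0.397.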

How the data were processed

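Total RNA of 5 mouse tissues was sequenced. Per the labels' protocols, 200 ng of RNA per library went through the NEBNext Ultra kit and was read as 50-nucleotide single reads on a HiSeq2500. The protocol names RSEM 1.2.20, Kallisto 0.43.1 and Ensembl build 84, and the submitters' processing notes name mm10, CASAVA 1.8, cutadapt 1.7.1, RSEM 1.7.1 and limma 3.46. The normalization and the gene filter are not given in the sources used here, and whether counting used strand is not given either. Each tissue has 1 deposited table of normalized signal, linear in scale, whose columns sum to between 941088 and 1077230. Multiplied back by each column's smallest step they behaved as estimated counts plus 0.5, of which 29.7% (lung) to 44.5% (liver) were whole within 0.005, so no count model was used. Depth is the sum of those recovered reads.

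Groups came from the labels. With R 4.3.3, log2(value + 1) was taken, genes with a mean of at least 1 in a tissue were kept, and linear models with a mean-variance trend were fitted per tissue in limma 3.58.1. P-values are two-sided and were adjusted over the genes of a tissue by Benjamini and Hochberg's method, with a threshold of 0.05. Treatment was adjusted for ZT as a factor, genotype in skin for a 24 h wave, and all 47 skin libraries shared 1 estimate of the spread. Rhythms were F tests of a 24 h cosine and sine, and their peak-to-trough folds are folds of value + 1. The models were also run on simulated counts with a fixed spread, and no result given here rests on that. Symbols and coordinates came from GENCODE M21 (GRCm38), matched by identifier, with 44 to 74 identifiers per table unmatched. The skin table held 1 row that named no gene, with at most 0.000316% of a column, which was left out. Levels per kb use the length of 1 principal transcript per gene, the longest, which need not be the one a tissue uses. Promoters came from RefSeq (GRCm38.p6), read with Python 3.11.15.

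The members, the marker lists and the tests were chosen with earlier results of these data known. Named genes are the members, the up to 3 family genes and up to 3 genes of a marker list past the threshold with the largest difference in a comparison, and the 3 genes most like a member in each tissue, of which the text gives some. Gt(ROSA)26Sor, Krt6a, Ltf, Mmp9, Csf3r and Cxcr2 were named after their values were seen. In bone marrow, 0 of 8 plasmacytoid dendritic cell and 0 of 9 T cell genes passed, 3 of 7 stem and progenitor genes rose, 2 of 12 endothelial genes rose, and of 5 plasma cell genes 1 rose and 1 fell. In iDTR skin, 4 of 6 T cell and 6 of 6 stem and progenitor genes fell, and of 9 monocyte genes 3 rose and 1 fell. Alternatives covered the pseudocount, the filter, quantile normalization, array weights, no ZT term, each library or ZT left out, the replicate number as a block, the skin genotypes fitted in pairs, and lung grouped by title number. The bone marrow lists without anti-Ly6G replicate 10 were added after seeing the data.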

Additional observations from a re-analysis of the deposited data

How the results depend on the processing

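The count of members called was 4 in bone marrow and in iDTR skin, 0 in the other 4 comparisons, 9 for rhythms, and 0 for differential rhythms and interactions. With single libraries left out it lay between 3 and 4 in bone marrow, was 4 in iDTR skin, lay between 0 and 1 in Bmal1-flox skin, and was 0 in gut, liver and lung. It moved to 2 with lung grouped by title number, to 1 in Bmal1-flox skin with array weights (Ly6d, adjusted p = 0.0326), and to 4 rhythms without ZT 1 or without ZT 9. The 8 called differences kept their sign in all 416 alternatives, and the 22 others changed it in 14 of 1129. Bone marrow Ly6g, at the threshold, lost its call with a pseudocount of 0.1 (adjusted p = 0.0502) or 5 (0.0503), with no filter (0.0543), with quantile normalization (0.0571), with no ZT term (0.0501) and without any single ZT but 21 (0.0613 to 0.139). With single libraries left out its adjusted p lay between 0.0205 and 0.0893. The cause was not tested.

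Sign changes were all in differences that had not passed. Bone marrow Ly6c1 was at 0.036 without ZT 17 and between -0.050 and 0.0088 with single libraries left out. Gut Ly6a was at 0.025 without ZT 5 and lung Ly6a at 0.012 without ZT 9. Lung by title number gave 0.21 for Ly6c2, 0.21 for Ly6c1, 0.071 for Ly6a, -0.039 for Ly6e and -0.25 for Ly6d. Skin Ly6d (iDTR) was at -0.064 with quantile normalization and between -0.0099 and 0.036 with single libraries left out. Genes called in gut lay between 2 and 44 with single libraries left out.

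Replicate numbers are shared between groups in gut and skin, but same-numbered libraries did not deviate together: 6 of 18 pairs in gut, 2 of 16 in iDTR and 1 of 15 in Bmal1-flox skin had a correlation over 0.1. With the replicate block, 0 members were called in gut, 4 in iDTR skin and 0 in Bmal1-flox skin, as without it. No paired analysis was possible in bone marrow, liver and lung because their numbers carry no pairing. Depth limits Ly6g, Ly6c1, Ly6c2 and Ly6d in liver, where group medians lay between 3.90 and 19.4 reads per library.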
